A study of Homo sapiens with 6 samples.

Results

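The sarcoplasmic reticulum calcium handling genes described here are RYR1, TRDN, JPH1, JPH2, STAC3, CASQ1, CASQ2, ATP2A1, ATP2A2 and SLN. They were chosen by symbol, and all 10 had a row among the 58735 rows of deposited counts. The counts come from RD cells, an established line of embryonal rhabdomyosarcoma, a soft tissue sarcoma with skeletal muscle features. All 6 cultures were transduced with lentiviral particles, of which 3 carried scrambled shRNA and 3 carried TAK1 shRNA. The knockdown rests on a single hairpin, TAK1 shRNA 1, in a single cell line. TAK1, the product of MAP3K7, is a kinase that relays cytokine and growth factor signals. The labels number the replicates but do not say how the cultures were separated, so a p-value here measures the spread between these samples, which may be technical.

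In skeletal muscle, an action potential travels down the transverse tubules to the triads, where the voltage sensor of the tubule membrane faces the ryanodine receptor of the sarcoplasmic reticulum. The voltage sensor opens the receptor, calcium leaves the reticulum, where calsequestrin had bound it, and the myofilaments contract. The pumps of the SERCA family then return calcium to the reticulum, and small membrane peptides slow them. Many of the genes for these proteins are switched on as myoblasts differentiate, which rhabdomyosarcoma cells complete poorly.

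Total counts on genes ran from 28839898 to 34469323 per library, and the common biological coefficient of variation between replicates was 5.67%. MAP3K7 mRNA, the target of the hairpin, was 77.3 ± 0.743 CPM (SD, n = 3) with scrambled shRNA and 31.3 ± 2.00 with TAK1 shRNA, a log2 fold change of -1.30 (SE 0.0615). CPM are counts normalized to library size, with library sizes scaled by the trimmed mean of M-values (TMM). A gene was called where edgeR's quasi-likelihood test gave an adjusted p under 0.05 and the absolute log2 fold change was at least 0.25. Of the 6 skeletal muscle lineage markers, MYOD1, MYOG, DES, CHRNA1 and MYMK were read in every library and MYF5 had 0 counts. Their summed level was 1656 to 1681 CPM with scrambled shRNA and 1551 to 1616 CPM with TAK1 shRNA. The lower sum came from CHRNA1, with means of 921 CPM with scrambled and 700 CPM with TAK1 shRNA. The means of MYOD1 (263 and 339), MYOG (141 and 170), DES (340 and 362) and MYMK (6.83 and 13.5) were higher with TAK1 shRNA. The share of muscle-like cells and the RNA in each such cell cannot be told apart in these bulk samples.

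JPH2 and STAC3 were called higher in TAK1 knockdown cultures, and 0 of the 8 tested members were called lower. Leaving out 1 library at a time gave 1 to 3 members called higher, with STAC3 lost without scrambled replicate 2 and ATP2A1 gained without scrambled replicate 1. ATP2A2 was called lower in 4 of those 6 fits, without scrambled replicate 2, scrambled replicate 3, TAK1 replicate 1 or TAK1 replicate 3. Over all 15935 genes tested, 11.8% were called higher and 11.3% lower. The fast-twitch calcium pump gene ATP2A1 was also higher, and its paralog ATP2A2 lower, with adjusted p under 0.05 but with fold changes below the threshold. RYR1 and JPH1 differed less, and TRDN, CASQ1, CASQ2 and SLN had at most 33 counts in any library.

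**Figure D1:**
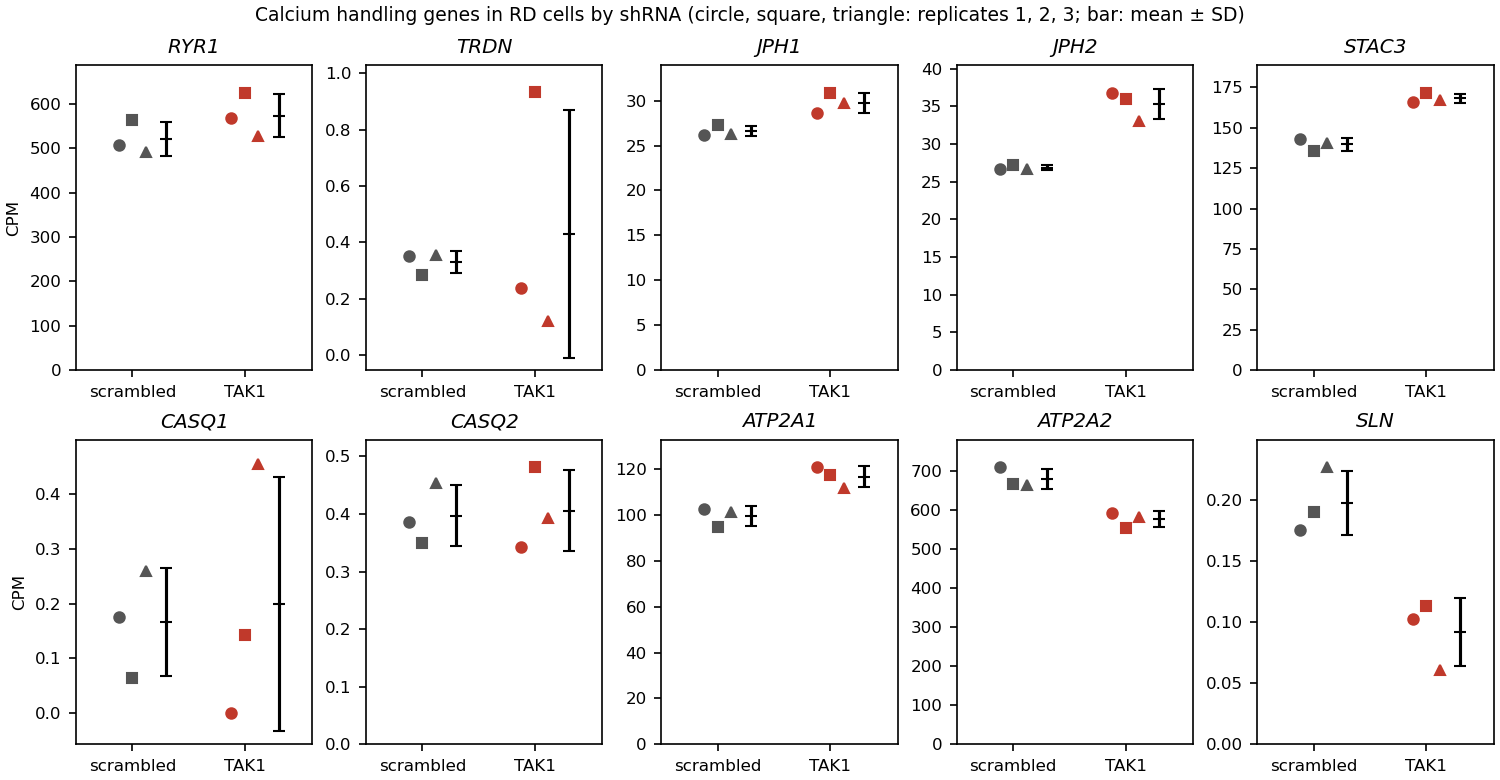
The expression of each of the 10 genes is plotted in CPM for the scrambled and TAK1 shRNA cultures, with a circle, square and triangle for replicates 1, 2 and 3 and a bar for the mean ± SD. The axes differ between genes and include 0. The groups do not overlap for JPH1, JPH2, STAC3, ATP2A1, ATP2A2 and SLN, and for TRDN the single high point is TAK1 replicate 2.

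To compare levels between genes, CPM were divided by the length of the canonical transcript in kilobases. In the scrambled cultures STAC3 was at 85.0 ± 2.38 CPM per kilobase (SD, n = 3) and ATP2A2 at 82.1 ± 3.10. That near equality rests on the length used, since with the merged length of all annotated exons the levels were 66.9 and 49.5. RYR1 at 33.8 ± 2.51 and ATP2A1 at 28.5 ± 1.24 formed the next pair. These were followed by JPH1 at 5.79 ± 0.123 and JPH2 at 2.83 ± 0.0347. SLN, CASQ2, CASQ1 and TRDN came last, at 0.274, 0.153, 0.0885 and 0.0716 CPM per kilobase. The release channel, its membrane scaffolds and the pumps were therefore well covered by reads. Triadin and both calsequestrins, which triadin anchors to the release channel, were near the detection limit. In the TAK1 knockdown cultures STAC3 was at 102 ± 1.73 CPM per kilobase and ATP2A2 at 69.6 ± 2.42. The order of the 10 genes in the scrambled cultures was the same with merged exon lengths.

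RYR1 encodes the calcium release channel of skeletal muscle and lies on chromosome 19 from 38433691 to 38595273 on the plus strand of GRCh38. It was read at 507, 565 and 491 CPM in scrambled replicates 1, 2 and 3 and at 569, 625 and 527 CPM in TAK1 shRNA replicates 1, 2 and 3. Replicate 2 was the highest of each group, and the groups overlapped, since scrambled replicate 2 exceeded TAK1 replicate 3. The log2 fold change was 0.14 (SE 0.0554, 95% interval 0.02 to 0.25), and edgeR's adjusted p of 0.0562 did not pass the threshold. The adjusted p was under 0.05 in 6 of 14 alternative settings, and the fold change stayed under 0.25 in each of them. Leaving out TAK1 replicate 2 gave 0.07, and leaving out scrambled replicate 2 gave 0.20.

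TRDN encodes triadin, which anchors calsequestrin to the release channel, and occupies 123216339 to 123637189 of chromosome 6, minus strand. Its counts were 10, 9 and 11 with scrambled shRNA and 7, 33 and 4 with TAK1 shRNA. TAK1 replicate 2 was far above the other 5 libraries, which held 4 to 11 counts. The log2 fold change of 0.41 (SE 0.579, 95% interval -0.78 to 1.61, edgeR adjusted p = 0.638) turned to -0.88 without that library. A change of TRDN in either direction was not detectable with these low counts and this spread between the TAK1 libraries.

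Junctophilins bridge the transverse tubule and the reticulum membrane and so set up the triad. JPH1, the main skeletal muscle form, occupies 74234700 to 74321540 of chromosome 8, minus strand. It was at 26.2, 27.2 and 26.3 CPM with scrambled shRNA and at 28.6, 30.9 and 29.8 CPM with TAK1 shRNA. The TAK1 knockdown libraries were all above the scrambled ones, but the log2 fold change of 0.16 (SE 0.0701, 95% interval 0.02 to 0.31) had an edgeR adjusted p of 0.0785. JPH2, the form best known from heart, occupies 44106590 to 44187188 of chromosome 20, minus strand. It was at 26.7, 27.2 and 26.6 CPM with scrambled shRNA, almost level with JPH1, and at 36.8, 36.0 and 33.0 CPM with TAK1 shRNA. The groups were wide apart relative to their spread, and JPH2 rose by 0.39 on the log2 scale (SE 0.0696, 95% interval 0.25 to 0.53, edgeR adjusted p = 9.04e-05), a 1.31-fold difference. It was called in 14 of 14 alternative settings that kept the fold threshold of 0.25, with log2 fold changes from 0.36 to 0.44. At a fold threshold of 0.5 it was not called.

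STAC3 encodes an adaptor that couples the voltage sensor to the release channel, and a loss of it abolishes contraction. The gene occupies 57243453 to 57251188 of chromosome 12, minus strand, and its exons overlap those of the same-strand gene ENSG00000258830, so reads there could have been shared or dropped. It was read at 143, 136 and 141 CPM with scrambled shRNA and at 166, 172 and 167 CPM with TAK1 shRNA. All knockdown libraries exceeded all scrambled libraries. STAC3 rose by 0.27 on the log2 scale (SE 0.0466, 95% interval 0.17 to 0.36, edgeR adjusted p = 6.54e-05). The call was lost in 1 of 14 alternative settings, where leaving out scrambled replicate 2 gave 0.25, just below the threshold.

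**Figure D2:**
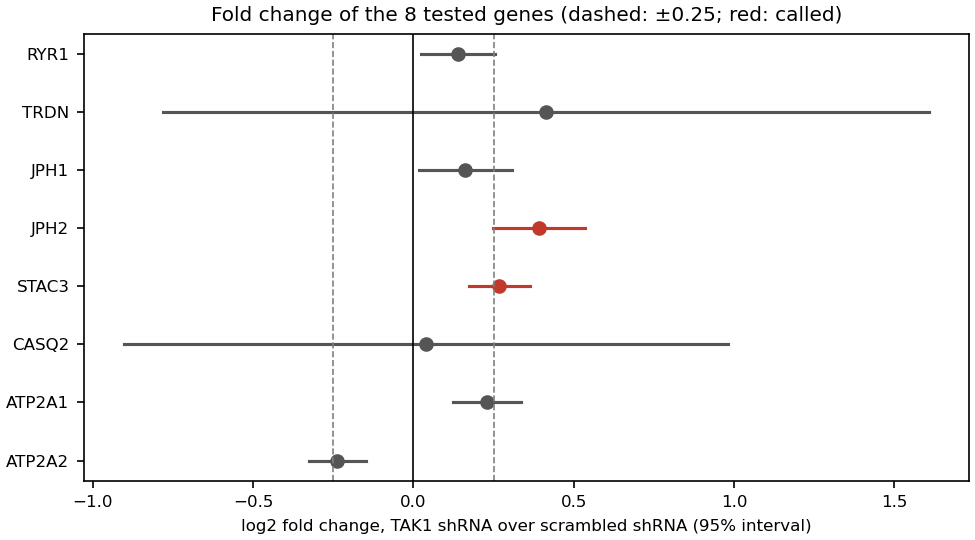
The log2 fold change of TAK1 shRNA over scrambled shRNA is plotted for the 8 tested genes with its 95% interval, and dashed lines mark the threshold of 0.25 in both directions. The intervals of TRDN and CASQ2 span 0 widely, those of RYR1, JPH1, ATP2A1 and the called JPH2 and STAC3 (red) lie above 0, and that of ATP2A2 lies below 0.

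Calsequestrins are the calcium-binding proteins of the reticulum lumen. CASQ1, the fast skeletal form at 160190575 to 160201886 of chromosome 1, plus strand, had 5, 2 and 8 counts with scrambled shRNA and 0, 5 and 15 with TAK1 shRNA. TAK1 replicate 1 was the lowest library and TAK1 replicate 3 the highest, so the knockdown group spanned the whole scrambled group. The sums of 15 and 20 counts had exact Poisson intervals of 8.4 to 24.7 and 12.2 to 30.9, which cover counting error only. CASQ1 did not pass the expression filter and was not tested. CASQ2, the cardiac and slow-twitch form at 115700021 to 115768884 of chromosome 1, minus strand, had 11, 11 and 14 counts in the scrambled and 10, 17 and 13 in the knockdown cultures. Its groups overlapped, with a log2 fold change of 0.04 (SE 0.457, 95% interval -0.90 to 0.98, edgeR adjusted p = 0.959). That interval leaves room for a near doubling or a near halving.

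The SERCA pumps return calcium to the reticulum. ATP2A1, which encodes SERCA1 of fast-twitch fibers, occupies 28878405 to 28904466 of chromosome 16, plus strand. It was read at 103, 94.7 and 101 CPM with scrambled shRNA and at 121, 117 and 112 CPM with TAK1 shRNA. The knockdown libraries were all higher, by 0.23 on the log2 scale (SE 0.0515, 95% interval 0.12 to 0.34, edgeR adjusted p = 0.00105). Its exons overlap those of ATP2A1-AS1 and RABEP2 on the opposite strand, and the use of strand in counting is not given in the sources used here. The same limit holds for RYR1 and JPH1, whose exons overlap those of opposite-strand genes ENSG00000269445 and GDAP1. The adjusted p was under 0.05 in 14 of 14 alternative settings, and the fold change reached the threshold in 2 of them, at 0.28 with scaling by library size alone and 0.25 without scrambled replicate 1.

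ATP2A2 encodes SERCA2, the pump of heart and slow-twitch fibers and, as another splice form, of most cells, and gene counts do not separate these forms. The gene occupies 110280756 to 110351093 of chromosome 12, plus strand. Its levels were 711, 668 and 665 CPM with scrambled shRNA and 594, 555 and 583 CPM with TAK1 shRNA. The knockdown libraries were all lower, with a log2 fold change of -0.24 (SE 0.0434, 95% interval -0.33 to -0.15, edgeR adjusted p = 0.000123). The adjusted p was under 0.05 in 14 of 14 alternative settings. The fold change crossed the threshold in 4 of them, each leaving out 1 library, with values of -0.25 to -0.26.

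SLN encodes sarcolipin, a small membrane peptide that inhibits SERCA pumps, and occupies 107707378 to 107719693 of chromosome 11, minus strand. The scrambled cultures had 5, 6 and 7 counts and the knockdown cultures 3, 4 and 2. The groups did not overlap. The sums of 18 and 9 counts had exact Poisson intervals of 10.7 to 28.4 and 4.12 to 17.1. These cover counting error only, and their overlap is not a test of the difference. The gene did not pass the expression filter, and without the filter, over 29336 genes, its adjusted p was 0.543 in edgeR. No difference in SLN was detected at these low counts, which do not settle whether there was one.

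Ratios of paralogs within a library do not depend on how libraries are scaled. The log2 ratio of ATP2A1 to ATP2A2 counts was -2.79, -2.82 and -2.71 with scrambled shRNA and -2.30, -2.24 and -2.38 with TAK1 shRNA. All knockdown ratios were above all scrambled ratios, with a difference of 0.47 (SE 0.0514, n = 3 per group). The two-sided exact permutation p was 0.1, the smallest that 3 samples against 3 can give. Per kilobase of canonical transcript, ATP2A1 made up 25.8% ± 0.741 (SD) of the summed level of the 2 pumps with scrambled shRNA and 32.5% ± 1.06 with TAK1 shRNA. SERCA2 mRNA remained the larger part in every library.

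Among the junctophilins, the log2 ratio of JPH1 to JPH2 was -0.03, 0 and -0.02 in the scrambled cultures and -0.36, -0.22 and -0.15 in the knockdown cultures. JPH1 thus made up a smaller part with TAK1 shRNA, 63.6% ± 1.74 against 67.2% ± 0.220 per kilobase. The difference in the log2 ratio was -0.23 (SE 0.0631), the groups did not overlap, and the two-sided exact permutation p was again 0.1 with n = 3. For the calsequestrins the log2 ratio of CASQ1 to CASQ2, with 0.5 added to each count, ranged from -2.20 to -0.77 and from -4.39 to 0.20. Those ranges overlapped, and the difference of -0.61 (SE 1.40, exact permutation p = 0.8, n = 3) turned to 0.61 without TAK1 replicate 1, the library with 0 CASQ1 counts.

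**Figure D3:**
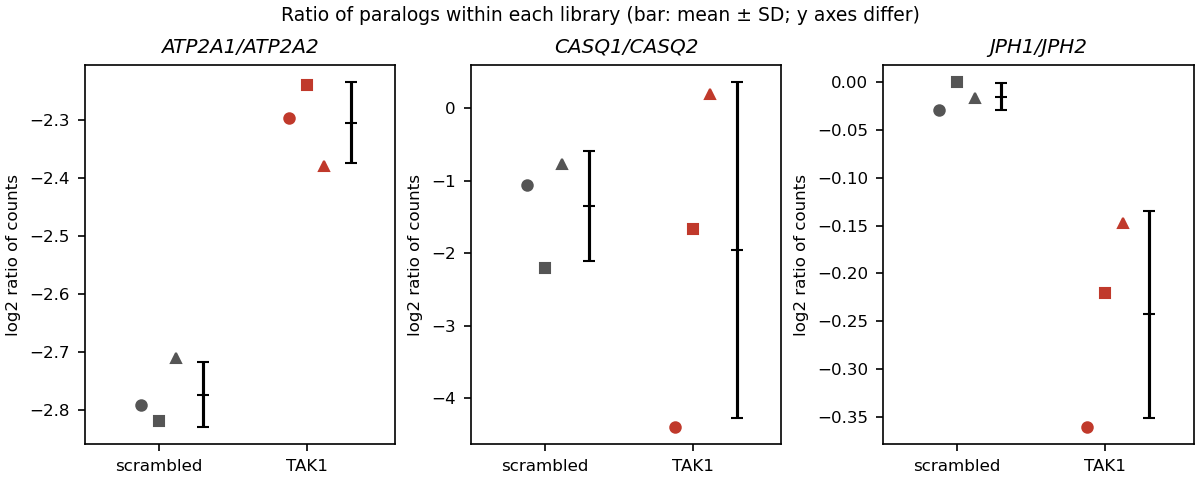
The log2 ratio of counts within each library is plotted for the 3 pairs of paralogs, with a circle, square and triangle for replicates 1, 2 and 3, a bar for the mean ± SD, and axes that differ between pairs. The ratio of ATP2A1 to ATP2A2 is higher in all TAK1 knockdown libraries, that of JPH1 to JPH2 is lower in all of them, and that of CASQ1 to CASQ2 spreads over both groups.

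Promoter sequences of the 2 pump genes and of JPH2 are shown because the pump mRNAs differed in opposite directions and JPH2 had the largest called fold change of the members. RefSeq sequence for the 250 bases before the canonical transcript start, in GRCh38.p14, was found for 7 of the 10 genes. These were RYR1, TRDN, JPH2, CASQ1, CASQ2, ATP2A1 and ATP2A2. ATP2A1 and ATP2A2 had 2 entries each, and the one at the canonical start was used. The annotated spans of these pump genes begin further upstream, so the ATP2A2 run lies within its gene. Bases that another transcript holds as untranslated region were left out of the printed runs. Capitals mark the E-box, CANNTG on both strands, the 6-base motif that MyoD and myogenin bind. The runs read 5′ to 3′ on the strand of the gene, at chr16:28878238-28878404 (plus) for ATP2A1, chr12:110280997-110281115 (plus) for ATP2A2 and chr20:44187189-44187438 (minus) for JPH2.
ATP2A1: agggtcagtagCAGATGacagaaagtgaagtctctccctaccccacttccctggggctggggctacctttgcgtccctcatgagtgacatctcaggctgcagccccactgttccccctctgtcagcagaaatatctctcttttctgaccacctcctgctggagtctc
ATP2A2: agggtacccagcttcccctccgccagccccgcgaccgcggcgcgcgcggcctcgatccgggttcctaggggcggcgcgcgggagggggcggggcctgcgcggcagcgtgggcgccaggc
JPH2: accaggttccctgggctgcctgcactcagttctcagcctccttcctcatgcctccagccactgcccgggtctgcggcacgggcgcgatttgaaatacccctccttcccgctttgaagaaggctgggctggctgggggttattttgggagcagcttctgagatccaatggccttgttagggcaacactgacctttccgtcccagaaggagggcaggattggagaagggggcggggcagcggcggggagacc
The ATP2A1 run held 1 E-box, 234 bases before the canonical transcript start, and the ATP2A2 and JPH2 runs held 0.

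Over the whole 250 bases, E-boxes were found in 5 of the 7 promoters, namely 2 each in TRDN, CASQ1 and ATP2A1 and 1 each in CASQ2 and ATP2A2. Of all 35114 RefSeq promoters of that length, 61.8% held this motif, so its presence did not set the calcium handling genes apart. RYR1 and JPH2, the latter called higher, had no match in this window. The AP-1 motif TGANTCA, searched on both strands, was in 0 of the 7 and in 6.57% of all promoters. The MEF2 motif was in CASQ2 alone of the 7 and in 2.8% of all. The GC content was 80.4% for ATP2A2, 62% for JPH2 and 60.8% for ATP2A1, against a median of 58% and quartiles of 46.4% and 68% over all promoters.

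Across the 8 tested genes, 7 had a positive and 1 a negative log2 fold change, with a median of 0.20 against 0.018 over all genes tested. The 6 that were not called ran from -0.24 to 0.41. The groups did not overlap for 4 genes with TAK1 shRNA higher (JPH1, JPH2, STAC3 and ATP2A1) and for 1 with TAK1 shRNA lower (ATP2A2). Such separation was seen in 21.6% of all genes tested in the higher direction and 22.2% in the lower.

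**Figure D4:**
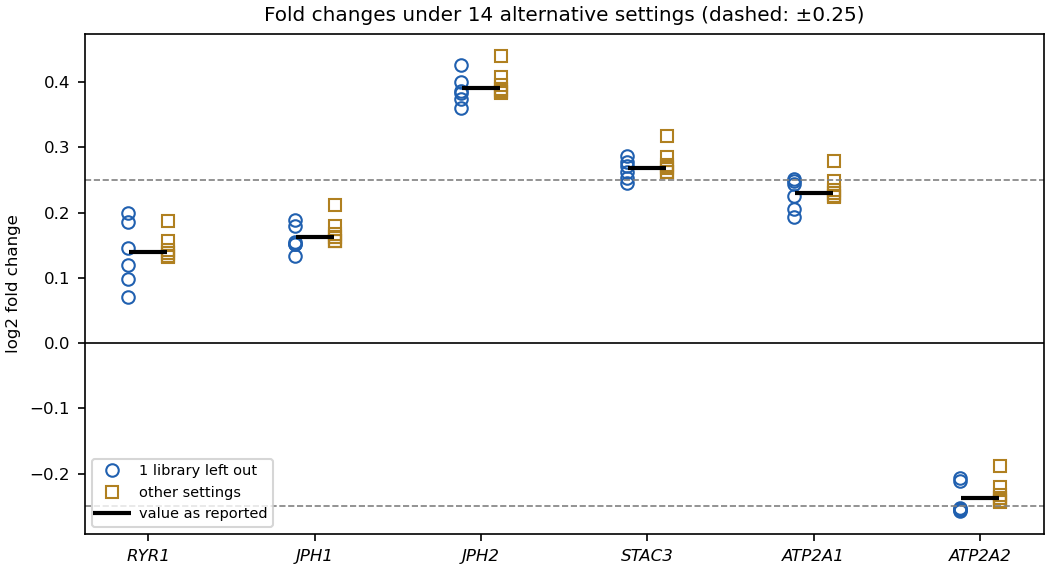
The log2 fold change of the 6 better covered genes is plotted under each of 14 alternative settings, with circles where 1 library was left out, squares for other settings, a black line for the reported value and dashed lines at 0.25 in both directions. JPH2 stays above the line throughout, and STAC3, ATP2A1 and ATP2A2 lie close to it.

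The wider machinery was described with a list of 63 genes, of which 54 were tested. The list held 10 genes called higher (18.5%) and 7 called lower (13.0%), and the median log2 fold change was 0.019. The other 37 ran from -0.22 to 0.40. Over all genes tested these shares were 11.8% and 11.3%, and the difference from them was not tested. The counts by role below come from lists of 5 to 13 tested genes. They stand against the same shares, and no role was tested against them.

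Upstream of RYR1, the voltage sensor list had 1 of 5 tested genes called higher and 0 lower. CACNA1S, the pore and voltage-sensing subunit, was at 3.06, 3.27 and 4.51 CPM with scrambled shRNA and at 6.87, 6.79 and 5.36 CPM with TAK1 shRNA. It rose by 0.81 on the log2 scale (SE 0.162, edgeR adjusted p = 0.000354), more than its partner adaptor STAC3. STAC, a relative of STAC3, had 0 counts in all libraries, which allows up to 0.0159 CPM over the 188366797 counts of the 6 libraries.

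Around the release channel, 1 of 13 tested genes was called higher and 2 lower. FKBP1A, whose product FKBP12 binds RYR1 and stabilizes its closed state, was at 190, 185 and 193 CPM with scrambled shRNA and at 87.8, 83.7 and 89.2 CPM with TAK1 shRNA. It fell by 1.12 on the log2 scale (SE 0.0485, edgeR adjusted p = 7.57e-15), while RYR1 itself was not called. FKBP1A exons overlap those of same-strand genes ENSG00000274322 and MIR6869 and of opposite-strand gene SDCBP2-AS1. ASPH, which also encodes the triad protein junctin, was lower by 0.85 on the log2 scale (log2 fold change -0.85, SE 0.0503), and gene counts do not separate junctin from the hydroxylase form. ITPR1, an inositol trisphosphate receptor gene, rose by 0.28 on the log2 scale (SE 0.0526), or 0.24 and below the threshold without scrambled replicate 3.

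In the triad and transverse tubule list, 1 of 5 tested genes was called higher and 0 lower. CAV3, the muscle caveolin, was at 1.24 ± 0.367 CPM and 2.02 ± 0.171 CPM (SD, n = 3), with a log2 fold change of 0.71 (SE 0.266, edgeR adjusted p = 0.0431) that was called in 8 of 14 alternative settings. Leaving out any library other than scrambled replicate 3 ended the CAV3 call, with log2 fold changes of 0.48 to 0.78. Of the luminal and membrane proteins of the reticulum, 2 of 7 were called higher and 0 lower. SELENON, a selenoprotein of the reticulum membrane, rose by 0.29 (SE 0.0475). SRL, sarcalumenin, had a log2 fold change of 0.26 (SE 0.0982, edgeR adjusted p = 0.0427) and was called in 6 of 14 alternative settings. The SRL call ended on leaving out any library other than TAK1 replicate 2, with values of 0.18 to 0.30.

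Among the pumps, their regulators and the extrusion genes, 3 of 8 were called higher and 3 lower. ATP2A3, the third SERCA gene, was at 40.1, 34.1 and 36.3 CPM with scrambled shRNA and at 55.2, 50.4 and 51.4 CPM with TAK1 shRNA. It rose by 0.51 on the log2 scale (SE 0.0677, edgeR adjusted p = 1.87e-06), the direction of ATP2A1 and not of ATP2A2. MRLN, whose product myoregulin inhibits SERCA pumps as sarcolipin does, rose from 7.17 ± 0.376 to 11.7 ± 1.11 CPM (SD, n = 3), by 0.71 on the log2 scale (SE 0.111). PLN, phospholamban, and STRIT1, the pump activator DWORF, had 0 counts in every library, as had ATP2B2.

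The genes that take calcium out of the cytosol by other routes were split. SLC8A1, a sodium-calcium exchanger, rose by 0.39 (SE 0.0879), whereas its paralog SLC8A3 had a log2 fold change of -0.63 (SE 0.0683). ATP2B4, a plasma membrane calcium pump, had a log2 fold change of -0.95 (SE 0.0614), from 64.1 ± 2.84 to 33.2 ± 0.780 CPM. PVALB, the cytosolic buffer parvalbumin, was at 1.92 ± 0.296 and 1.05 ± 0.203 CPM, with a log2 fold change of -0.87 (SE 0.272) that was called in 11 of 14 alternative settings. Its call ended without scrambled replicate 2 (-0.83), scrambled replicate 3 (-0.79) or TAK1 replicate 2 (-0.76).

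In store-operated entry, where emptied stores open channels of the plasma membrane, 1 of 7 genes was called in each direction. The channel gene ORAI3 rose by 0.67 (SE 0.130), and STIM2, a calcium sensor of the reticulum, had a log2 fold change of -0.46 (SE 0.0664). Of the calcineurin and NFAT genes, which read out cytosolic calcium, 1 of 9 was called in each direction. NFATC2, a transcription factor activated by calcineurin, rose from 0.991 ± 0.0121 to 1.98 ± 0.186 CPM. RCAN2, a calcineurin regulator, had a log2 fold change of -0.27 (SE 0.0992, edgeR adjusted p = 0.0407) and was called in 7 of 14 alternative settings. Its call ended without scrambled replicate 2 (-0.24, edgeR adjusted p = 0.146), scrambled replicate 3 (-0.25, edgeR adjusted p = 0.118) or TAK1 replicate 2 (-0.20, edgeR adjusted p = 0.169).

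**Figure D5:**
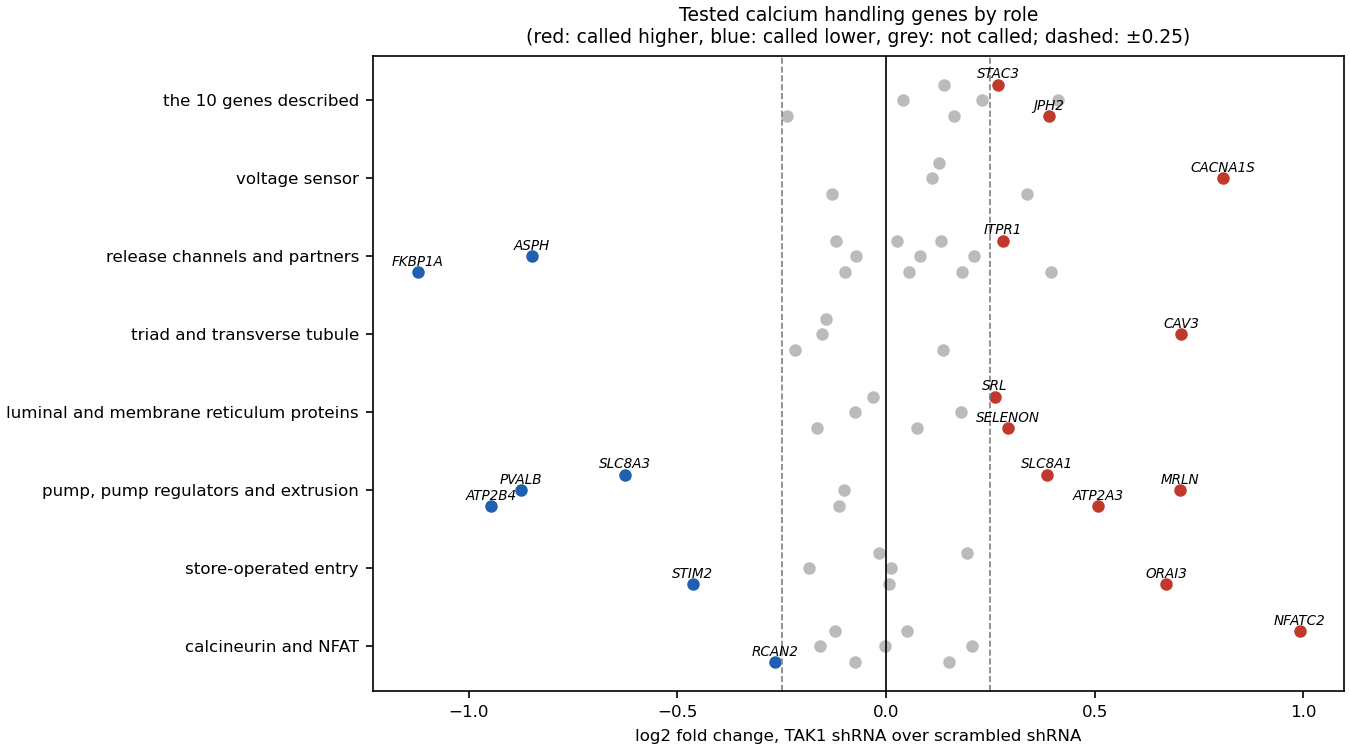
The log2 fold change of each tested gene is plotted by its role in calcium handling, with red for genes called higher, blue for genes called lower, grey for genes not called and dashed lines at 0.25 in both directions. Within the pump and extrusion list the called genes lie on both sides, from ATP2B4 at -0.95 to MRLN at 0.71.

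Markers of the muscle lineage differed in both directions. MYOD1, MYOG and MYMK were called higher, at log2 fold changes of 0.37 (SE 0.0465), 0.27 (SE 0.0501) and 0.98 (SE 0.110), CHRNA1 was called lower at -0.40 (SE 0.0393), and DES was at 0.09 (SE 0.0429). The MYOG call ended without scrambled replicate 1 or TAK1 replicate 1, at 0.24 in both cases. The 4 epithelial markers summed to 56.4 to 62.8 CPM with scrambled shRNA and 27.7 to 31.1 CPM with TAK1 shRNA, nearly all from KRT18, with CDH1 at 0. Of the 6 cardiomyocyte markers, MYL7 and MYBPC3 were at 0 and NKX2-5 held nearly all of a summed level of 33.4 to 35.0 CPM with scrambled and 28.4 to 34.7 CPM with TAK1 shRNA. The part of any of these markers in the calcium handling differences was not tested.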

How the data were processed

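The authors extracted RNA from RD cells, enriched poly(A) mRNA, sequenced it in pairs and deposited raw counts per gene. Bases were called with CASAVA, adaptor-containing and low-quality reads were removed and STAR aligned the rest to GRCh38. The counter, annotation release, strand use and treatment of reads with several matches are not given in the sources used here. Among called genes of the wider list, exons of FKBP1A, SELENON, SLC8A1 and ORAI3 overlap same-strand genes. Exons of CACNA1S, ASPH and ITPR1 overlap opposite-strand genes. Reads there could have been shared or dropped. Groups came from the labels. edgeR 4.0.16 (TMM, default expression filter, quasi-likelihood test, Benjamini-Hochberg over 15935 genes) was run without a replicate term, since the paper names none. Deviations from the group mean correlated at 0.037, 0.0364 and 0.0165 between same-numbered samples, which does not settle whether the samples were paired. SEs are the absolute log2 fold change over the square root of F. Transcript lengths and coordinates came from GENCODE 44. For all log2 ratios 0.5 was added to both counts, and exact permutation tests went through every split of the samples. Exact Poisson intervals were computed with SciPy 1.17.1. Alternatives were 3 other normalizations or scalings, DESeq2 1.42.0, limma 3.58.1, 2 filters, 2 fold thresholds, a term for the replicate number, and fits with each library left out. The 14 alternative settings counted for single genes leave out the 2 fold thresholds. Scripts were tested on simulated data. All 10 members, all called genes of the wider list and MAP3K7 are named. The members and lists were chosen with earlier results of these data known. At total counts of 28839898 to 34469323, genes under about 10 counts per library are limited by counting error.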

Additional observations from a re-analysis of the deposited data

How the results depend on the processing

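Of 111 values of the tested members under alternative settings, 100 kept their direction and stayed called or not called. Another 1 lost its call, 6 gained one and 4 were reversed. Among the 100 are values of RYR1 in 6 settings and JPH1 in 1 whose adjusted p fell under 0.05. Those values stayed uncalled because their fold changes were under 0.25. The reversed values were log2 fold changes of TRDN, at -0.070 with limma-voom and -0.88 without TAK1 replicate 2, and of CASQ2, at -0.047 without scrambled replicate 2 and -0.11 without TAK1 replicate 2, and all of these had adjusted p above 0.05. With 1 library left out at a time, TRDN ranged from -0.88 to 0.84 and CASQ2 from -0.11 to 0.15. Leaving out 1 library moved the number of members called higher from 2 to between 1 and 3, and that of members called lower from 0 to between 0 and 1, with ATP2A1 gained, STAC3 lost or ATP2A2 gained. The difference in the log2 ratio of CASQ1 to CASQ2 ranged from -1.69 to 0.61 with 1 library left out, the latter without TAK1 replicate 1. With a fold threshold of 0.5, 0 members were called in either direction, and 6 genes of the wider list were called higher and 5 lower. Without a fold threshold, 3 members were called higher and 1 lower, and the wider list held 13 and 11. The shares of all tested genes at these 2 thresholds are not given here, so these counts have no background beside them. Of 238 values of the wider genes called, 213 kept the call and 25 lost it, all in CAV3, SRL, PVALB, RCAN2 and ITPR1. Scaling by library size alone moved the median log2 fold change of all genes from 0.018 to 0.066 and the calls from 1879 higher and 1805 lower to 2376 and 1404, and at that shift ATP2A1 passed the threshold and ATP2A2 kept its direction. With a replicate block, 2 members were called higher and 0 lower and the wider list held 10 and 7, and RYR1 had an adjusted p of 0.00145. Merged exon lengths, chosen after the data were seen, lowered the level per kilobase in scrambled cultures to 66.9 for STAC3, 49.5 for ATP2A2, 21.9 for ATP2A1, 2.52 for JPH2, 0.218 for SLN and 0.0250 for TRDN. Low counts limit TRDN, CASQ1, CASQ2 and SLN, and the spread between TAK1 libraries also limits TRDN and CASQ1. Replicates of unstated separation limit every p-value.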
